A study of Mus musculus with 18 samples.

Results

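Wnt ligands, Frizzled receptors, co-receptors, secreted antagonists and the intracellular and nuclear proteins of the same pathway were read in 3 cell types of the mouse glomerulus. The members were taken by symbol. They were all genes named Wnt, Fzd, Sfrp or Dkk with a number, plus *Frzb*, *Wif1*, *Lrp5*, *Lrp6*, *Ror1*, *Ror2*, *Axin1*, *Axin2*, *Ctnnb1*, *Apc*, *Gsk3b*, *Dvl1*, *Dvl2*, *Dvl3*, *Lef1*, *Tcf7*, *Tcf7l1* and *Tcf7l2*. This gave 55 genes of 22909 symbols on an Affymetrix Mouse Gene ST array with 28856 transcript clusters. Each cluster is a set of probes summarized into 1 signal, and it can carry the symbols of several genes. Where a gene had several clusters, the one with the highest mean signal was used. The table was annotated on mouse build mm9. Its values are linear signals made by RMA, a procedure that corrects background, equalizes the arrays and summarizes the probes.

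The 18 arrays formed 6 groups of 3, from mice of 5 weeks. Mesangial cells were sorted through a Meis1-GFP transgene and endothelial cells through Tie2-GFP, and podocytes were sorted by GFP as well, so mutant and control mice of a cell type both carried its reporter. *Cd2ap* encodes an adaptor protein of the podocyte slit diaphragm, and each cell type came from Cd2ap-/- mice and from mice recorded as wildtype. The mesangial control columns are headed +/- and the other control columns +/+, so the mesangial controls may have been heterozygous. The sample titles also call these mesangial samples control, where the titles of the other cell types say wild type. The records otherwise list every control as wildtype, and that name is kept, with Cd2ap-/- called mutant. Biological triplicates are recorded. Arrays are named A, B and C within a group only by column order.

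Wnt proteins are secreted lipid-modified ligands that bind Frizzled receptors. Together with the co-receptors Lrp5 or Lrp6 they keep beta-catenin (*Ctnnb1*) from being degraded by the complex of Axin, Apc and Gsk3b, and beta-catenin then acts with TCF/LEF factors on target genes. Ror kinases and some Frizzled receptors also carry Wnt signals that do not use beta-catenin. Secreted Frizzled-related proteins (the Sfrp genes and *Frzb*) and Wif1 bind the ligands themselves, whereas Dkk proteins bind Lrp5 and Lrp6. In the kidney the pathway is best known from nephron formation and from injured podocytes and fibrotic tissue.

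Median signals of the arrays lay between 62.8 and 71.6. The *Cd2ap* signal itself was 829 ± 37.6 (SD, n = 3) in mutant and 1027 ± 101 in wild type mesangial cells, 1498 ± 17.6 and 1775 ± 295 in podocytes, and 926 ± 37.5 and 819 ± 53.9 in endothelial cells. It was therefore not lower in the endothelial arrays labelled mutant, and genotype directions below rest on the labels. Marker genes followed the labelled cell types, but the sorts were not pure. The summed signal of 10 mesangial markers was 9798 to 14406 in mesangial arrays, 1269 to 6607 in podocyte arrays and 793 to 947 in endothelial arrays. Wild type mesangial array C also had a sum of 4651 over 10 podocyte markers, where the other mesangial arrays had 991 to 1245, and 8628 over 10 endothelial markers, where the others had 3138 to 3527. Arrays with Y-linked signal were also unevenly spread: wild type arrays B and C of mesangial cells, mutant array B and wild type array A of podocytes, and mutant arrays A and B of endothelial cells. These are bulk samples, in which fewer cells of a type and less RNA per cell cannot be told apart.

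Of the 55 genes, 29 reached a signal of 100 in at least 1 array. The other 26 lay between 29.4 and 98.9 in all 18 arrays and were not tested. Most ligands were among them: 4 of 19 reached 100, namely *Wnt4*, *Wnt5b*, *Wnt9a* and *Wnt10a*. The receptors were measured more often, with 8 of 10 Frizzled genes and 3 of the 4 co-receptor and Ror genes above 100 somewhere, as were 4 of 10 secreted antagonists. All 8 intracellular transducers and 2 of the 4 TCF/LEF factors, *Tcf7l1* and *Tcf7l2*, reached it. Ligands whose signal stayed low cannot be called absent, since the table holds no detection call.

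**Figure D1:**
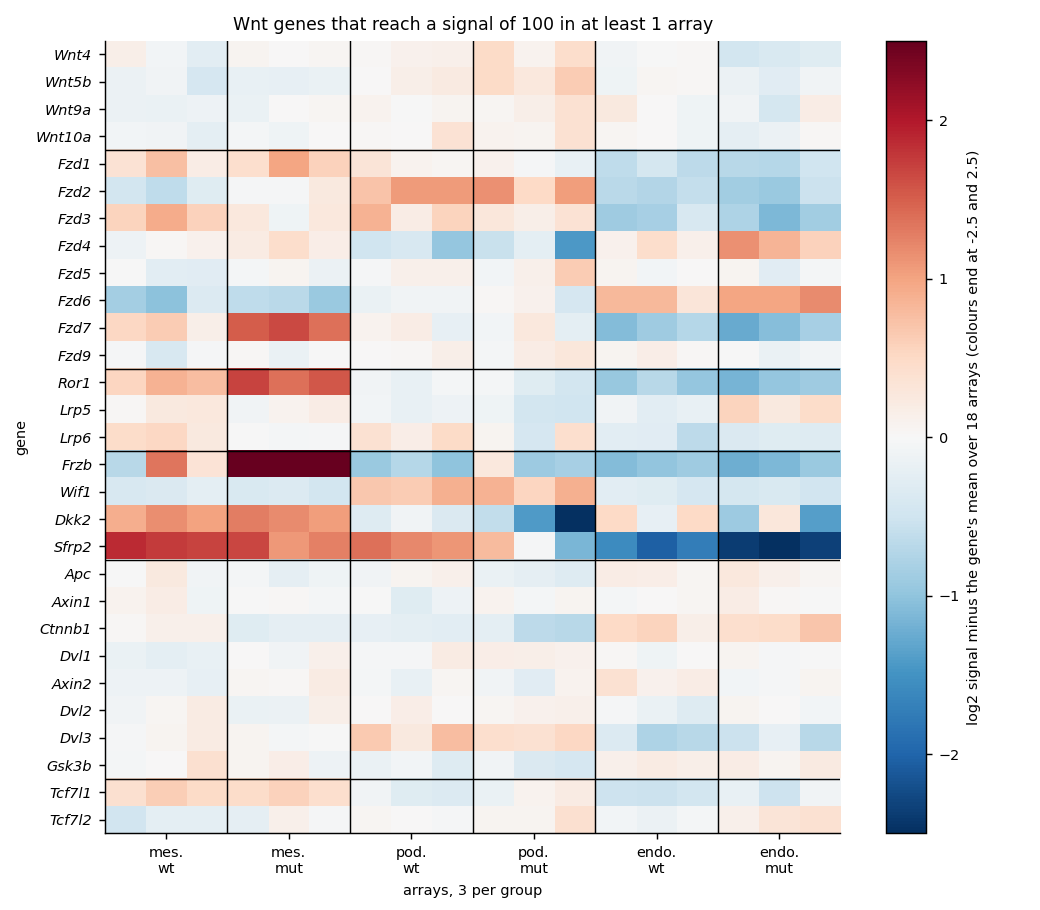
Log2 signal minus each gene's mean over 18 arrays (colour scale, ends at -2.5 and 2.5) for the 29 Wnt genes (rows, ordered by role) that reached a signal of 100, with the 3 arrays of each group side by side (columns). *Frzb* is highest in the 3 mutant mesangial arrays, *Sfrp2* is lowest in the endothelial arrays, and the transducers vary less between groups than *Frzb* or *Sfrp2*.

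The first question was which cell type carries which member. Cell types were compared in pairs with limma over the 18 arrays, first in wild type and then in mutant arrays, which are separate samples, and a call needed an adjusted p under 0.05 and a fold change over 1.5. In wild type arrays 7 members were called between podocytes and mesangial cells, against 13.8% of all clusters tested. Between endothelial and mesangial cells 10 were called, against 16.2%, and between podocytes and endothelial cells 12, against 20.0%. The pairs share groups and are not independent of each other. In mutant arrays 6 of the 7, 8 of the 10 and 11 of the 12 were called again in the same direction. The exceptions were *Tcf7l1* in the first pair, *Dvl3* and *Lrp6* in the second and *Lrp6* in the third. The share called again was not taken over all clusters, and both genotypes came from 1 fit with 1 estimate of spread per cluster. Several members, such as *Wif1* and *Frzb*, also reached 100 only in the cell type where they were high. The repeat counts are therefore a description and no result about the members. The mutant arrays made 11, 11 and 14 calls in these pairs, against 19.2%, 18.0% and 29.9% of all clusters.

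*Wnt4*, the ligand that drives the epithelial conversion of nephron precursors, was measured in all 3 cell types, from 134 to 178 in the wild type and mutant mesangial arrays, 164 to 224 in podocytes and 117 to 164 in endothelial cells. No wild type pair was called for a ligand. In mutant arrays podocytes exceeded endothelial cells by 0.71 ± 0.11 (log2 ± SE) for *Wnt4* (adjusted p = 8.29e-05, limma) and by 0.63 ± 0.11 for *Wnt5b* (adjusted p = 0.000201). *Wnt5b*, best known for signals that do not use beta-catenin, was also 0.65 ± 0.11 higher in mutant podocytes than in mutant mesangial cells (adjusted p = 0.000276, limma). Its signals were 151, 130 and 169 in mutant podocytes against 95.3, 93.7 and 96.7 in mutant mesangial cells, with no overlap. The wild type podocyte arrays gave 109, 120 and 126 and the wild type mesangial arrays 98.0, 102 and 81.5, a smaller gap that was not called.

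*Fzd2*, a Frizzled receptor that takes part in both kinds of Wnt signal, was highest in podocytes. Its signals were 152, 194 and 194 in wild type podocytes and 205, 131 and 193 in mutant podocytes. In mesangial cells they were 67.4, 59.8 and 75.4 in wild type and 91.6, 91.4 and 110 in mutant arrays, and in endothelial cells 49.1 to 64.2. Every podocyte array lay above every array of the other cell types. Outside podocytes *Fzd2* reached 100 in only 1 array, mutant mesangial array C, so that its being tested was tied to its podocyte level. In wild type arrays the log2 difference of podocytes was 1.41 ± 0.16 from mesangial cells (adjusted p = 9.22e-06, limma) and 1.62 ± 0.16 from endothelial cells (adjusted p = 1.32e-06). The wild type endothelial signals lay below the array medians and the mesangial ones near them, so these differences are against the low end of the scale, where a signal is not shown to be above background, and give no exact fold.

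*Fzd6*, a receptor of the planar polarity branch, was highest in endothelial cells and lowest in mesangial cells. Its signals were 214, 213 and 150 in wild type and 242, 241 and 276 in mutant endothelial cells, 109, 114 and 115 and then 125, 131 and 91.2 in podocytes, and 60.1 to 95.7 in mesangial cells. The endothelial arrays all lay above the podocyte arrays, which lay above the mesangial arrays except that wild type mesangial array C (95.7) exceeded mutant podocyte array C (91.2). The endothelial minus mesangial difference was 1.38 ± 0.18 on the log2 scale in wild type (adjusted p = 2.11e-05, limma) and 1.80 ± 0.18 in mutant arrays (adjusted p = 9.34e-07). No mesangial array reached 100, so that being tested against mesangial cells was tied to the level in the other cell types. No exact fold is given here either. Podocytes exceeded mesangial cells by 0.62 ± 0.18 in wild type arrays (adjusted p = 0.0189), a call that was lost when wild type mesangial array A or B or podocyte array B or C was left out, with a log2 difference of 0.48 without mesangial array B.

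*Fzd1* and *Fzd3* were low in endothelial cells. *Fzd3*, a planar polarity receptor that also guides axons, gave 47.5, 49.9 and 66.6 in wild type endothelial arrays against 130, 167 and 131 in mesangial cells and 161, 100 and 129 in podocytes. The endothelial arrays did not overlap with either. The endothelial minus mesangial difference was -1.39 ± 0.18 on the log2 scale in wild type (adjusted p = 1.72e-05, limma) and -1.05 ± 0.18 in mutant arrays (adjusted p = 0.000226). *Fzd1* was 66.8 to 77.6 in wild type endothelial arrays and 120 to 177 in mesangial arrays, a log2 difference of -1.01 ± 0.16 (adjusted p = 0.000118), and in mutant arrays the difference was -1.30 ± 0.16. The endothelial signals of *Fzd3* lay below the array medians and those of *Fzd1* near them, so these too are differences from the low end of the scale. Neither gene reached 100 in an endothelial array, so that being tested was tied to the level in the other cell types.

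*Fzd4*, the norrin receptor of blood vessels, was called between podocytes and endothelial cells in both genotypes. Wild type podocytes gave 139, 149 and 101 and endothelial cells 211, 265 and 215, with no overlap (log2 -0.84 ± 0.24, adjusted p = 0.0115, limma), and the call was lost without podocyte array C or endothelial array B, at -0.67 and -0.74. In mutant arrays this difference was -1.60 ± 0.24 (adjusted p = 4.55e-05, limma), and podocytes were also called below mesangial cells (-1.02 ± 0.24, adjusted p = 0.0034). Mutant podocytes gave 134, 165 and 72.3, so that array C was far below the others. The podocyte arrays also carried endothelial transcripts, with sums over 10 endothelial markers of 4742 to 6325 in wild type and 950 to 2992 in mutant arrays. The part of such transcripts in the podocyte signals of *Fzd4* and *Fzd6* was not tested. *Fzd7* and *Ror1*, described again under genotype, also differed between cell types, in wild type and again in mutant arrays. *Fzd7* was higher in mesangial than in endothelial cells (log2 -1.32 ± 0.16 for endothelial minus mesangial cells, adjusted p = 1.33e-05, limma) and higher in podocytes than in endothelial cells (log2 0.91 ± 0.16, adjusted p = 0.000445). *Ror1* was 1.78-fold higher in mesangial cells than in podocytes (adjusted p = 0.00018) and higher than in endothelial cells (log2 -1.59 ± 0.13 for endothelial minus mesangial cells, adjusted p = 1.25e-07). Neither gene reached 100 in any of the 6 endothelial arrays, where *Fzd7* was 63.4 to 93.0 and *Ror1* 59.1 to 82.1. Their endothelial differences are thus also from the low end of the scale, with being tested tied to the other cell types. *Fzd5* and *Fzd9* made no call in any pair, and *Fzd8* and *Fzd10* stayed below 100 and were not tested.

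**Figure D2:**
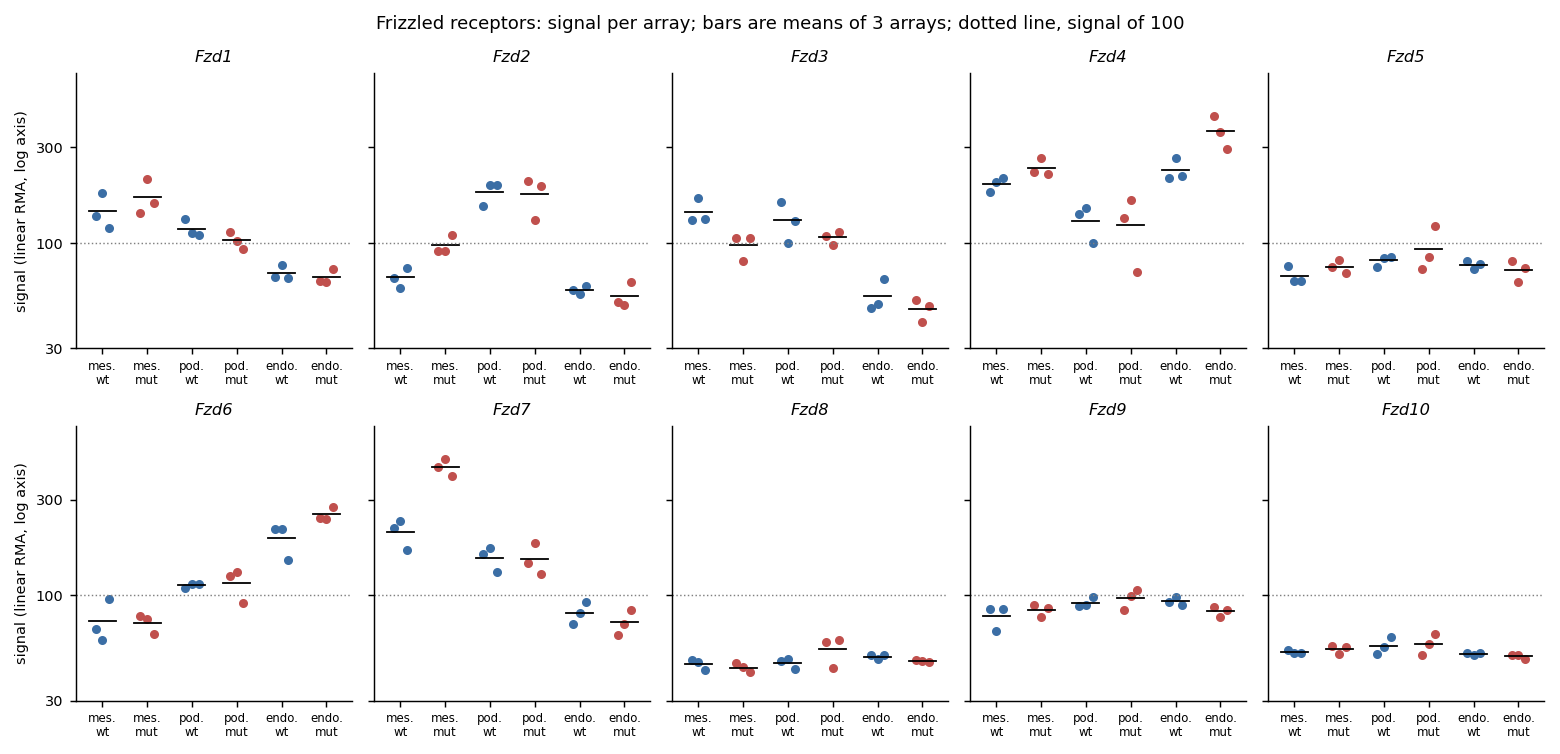
Signal of the 10 Frizzled genes in each array (points; linear RMA signal on a log axis) by cell type and genotype, with bars for the mean of 3 arrays and a dotted line at 100. *Fzd2* sits highest in podocytes (131 to 205), *Fzd6* in endothelial cells (150 to 276) and *Fzd7* in mutant mesangial cells (393 to 479).

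The co-receptor *Lrp6* was lower in wild type endothelial than mesangial cells (log2 -0.81 ± 0.17, adjusted p = 0.00147, limma) and podocytes exceeded endothelial cells by 0.74 ± 0.17. Its mutant arrays, 427, 418 and 421 in mesangial and 334, 348 and 346 in endothelial cells, lay closer together and were not called. *Lrp5* was called only between mutant podocytes and mutant endothelial cells, at -0.77 ± 0.12 (adjusted p = 7e-05).

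Among the 4 antagonists that reached a signal of 100, *Wif1* was the one with podocyte signals above those of both other cell types. Podocytes gave 100, 98.2 and 116 in wild type and 115, 91.5 and 116 in mutant arrays, while all 12 other arrays lay between 45.2 and 52.8. The groups did not overlap. *Wif1* reached the minimum of 100 only in 4 podocyte arrays, so that being tested was tied to its podocyte level, and its mesangial and endothelial signals lay below the array medians. The fitted differences are therefore against a signal at the low end of the scale. The wild type difference was 1.08 ± 0.10 from mesangial cells (adjusted p = 1.39e-06, limma) and 1.07 ± 0.10 from endothelial cells (adjusted p = 8.24e-07), and in the mutant arrays *Wif1* was again called against both, with 1.16 ± 0.10 from mesangial cells (adjusted p = 4.35e-07).

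*Sfrp2* was high in mesangial cells and podocytes and low in endothelial cells. Wild type arrays gave 1805, 1663 and 1598 in mesangial cells, 1299, 1146 and 1069 in podocytes, and 168, 120 and 149 in endothelial cells. The 3 cell types did not overlap. Endothelial cells were 11.7-fold below mesangial cells (log2 -3.54 ± 0.32, adjusted p = 3.65e-07, limma) and 8.08-fold below podocytes (adjusted p = 2.06e-06), whereas the difference between podocytes and mesangial cells was not called in wild type arrays. *Dkk2*, the antagonist that binds Lrp5 and Lrp6, was 1923, 2296 and 2047 in wild type mesangial cells, 816, 957 and 798 in podocytes and 1446, 881 and 1442 in endothelial cells. Mesangial cells exceeded podocytes 2.44-fold (log2 -1.29 ± 0.41 for podocytes minus mesangial cells, adjusted p = 0.032), but the adjusted p was over 0.05 whichever 1 of these 6 arrays was left out (log2 -1.22 to -1.37). The podocyte arrays also carried mesangial transcripts: *Itga8*, an integrin of mesangial cells, was 1153, 1152 and 869 there against 2892, 3126 and 2904 in mesangial cells. The part of such transcripts in the podocyte signals of *Sfrp2* and *Dkk2* was not tested.

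*Frzb*, a secreted antagonist of the Sfrp family that is best known from cartilage, was near the low end of the scale outside mesangial cells. Wild type mesangial arrays gave 43.9, 181 and 90.1, podocyte arrays 37.5, 43.3 and 35.5 and endothelial arrays 33.7, 35.8 and 38.8. *Frzb* reached 100 only in 4 mesangial arrays, so that its being tested between cell types was tied to its mesangial level. The lowest mesangial value was barely above the highest podocyte value, and array B stood far above both others. The called wild type differences, -1.21 ± 0.37 for podocytes minus mesangial cells (adjusted p = 0.0244, limma) and -1.31 ± 0.37 for endothelial minus mesangial cells (adjusted p = 0.0134), were -0.70 and -0.80 without mesangial array B and no longer called. The first was also lost without mesangial array C or podocyte array A or C.

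Some transducers and nuclear factors were also called. *Tcf7l1*, mostly a repressor of Wnt targets, was 239, 277 and 253 in wild type mesangial cells against 170, 147 and 143 in podocytes and 127, 125 and 132 in endothelial cells, and was called in both mesangial pairs (log2 -0.74 ± 0.12 for podocytes minus mesangial cells, and adjusted p of 0.000258 and 8.95e-06 in limma). *Dvl3*, a cytoplasmic relay of Frizzled receptors, was 2.23-fold higher in podocytes than in endothelial cells (adjusted p = 1.9e-05). *Ctnnb1* was 1.56-fold lower in podocytes than in endothelial cells (adjusted p = 0.00103). *Apc*, *Axin1*, *Axin2*, *Dvl1*, *Dvl2*, *Gsk3b* and *Tcf7l2* made no call in any pair, and *Dvl2* was read from a cluster shared with a neighbouring gene, *Acadvl*.

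The second question was how the *Cd2ap* mutation moved the members within each cell type. Within a cell type, limma was fitted over its 6 arrays. A member passed the genotype screen when its fold change was over 1.5 and its unadjusted p under 0.05, and the Benjamini-Hochberg adjusted p over all clusters tested is given beside it. In mesangial cells 3 of the 22 members tested passed the screen, all higher in mutants: *Frzb*, *Fzd7* and *Ror1*. Over all clusters 5.19% passed it, 2.08% higher and 3.12% lower. The same 3 members also had an adjusted p under 0.05, which 2.92% of clusters had in either direction and 1.25% in the direction of a higher mutant signal. The other 33 members did not reach a signal of 100 in these arrays. The median log2 difference was 0.01 over the tested members and -0.02 over all clusters.

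*Frzb* rose most among them. Its signals were 605, 636 and 633 in the mutant arrays against 43.9, 181 and 90.1 in wild type. The mutant arrays lay close together and far above the wild type arrays, which were spread over a wide range. The means were 625 ± 16.8 and 105 ± 69.8 (SD, n = 3), and the log2 difference was 2.80 ± 0.46 (95% interval 1.71 to 3.89), with an adjusted p of 0.0334 in limma. Wild type array A lay below its array median, at the low end of the scale, so no exact fold is given.

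*Fzd7*, a Frizzled receptor of stem and mesenchymal cells, rose 2.12-fold. Its signals were 433, 479 and 393 in mutant arrays against 216, 234 and 168 in wild type, with no overlap (log2 1.09 ± 0.15, adjusted p = 0.0203, limma). *Ror1*, a receptor kinase that binds Wnt5a and is mainly active in the embryo, rose 1.76-fold. It gave 430, 345 and 393 in mutants against 192, 244 and 227 in wild type, again with no overlap (log2 0.82 ± 0.13, adjusted p = 0.0293, limma).

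*Fzd2* did not pass the screen in mesangial cells. Its signals were 91.6, 91.4 and 110 in mutants against 67.4, 59.8 and 75.4 in wild type, and the arrays did not overlap, but the 1.44-fold difference was under 1.5 (log2 0.53 ± 0.12, adjusted p = 0.0728, limma), and without wild type array C it passed at 0.61. Mutant array C was the only mesangial array in which *Fzd2* reached 100, and without it the gene was not tested. In all 10 members had an unadjusted p under 0.05, which 21.7% of clusters had. The other 6 had a fold change under 1.5: *Fzd4* (log2 0.26) and *Axin2* (0.25), itself a common target of beta-catenin, were higher in mutants, and *Fzd3* (-0.54), *Lrp6* (-0.44), *Sfrp2* (-0.42) and *Ctnnb1* (-0.35) were lower. Their adjusted p values ran from 0.0628 to 0.224. *Axin2* gave 105, 103 and 117 in mutants against 92.4, 92.8 and 88.4. Like *Fzd2* it reached 100 only in mutant mesangial arrays, so the place of both in these counts was tied to the higher mutant signal. The arrays of the genotypes did not overlap for 7 members that were higher and 4 that were lower, where 28.6% of all clusters did not overlap (12.3% higher and 16.3% lower).

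**Figure D3:**
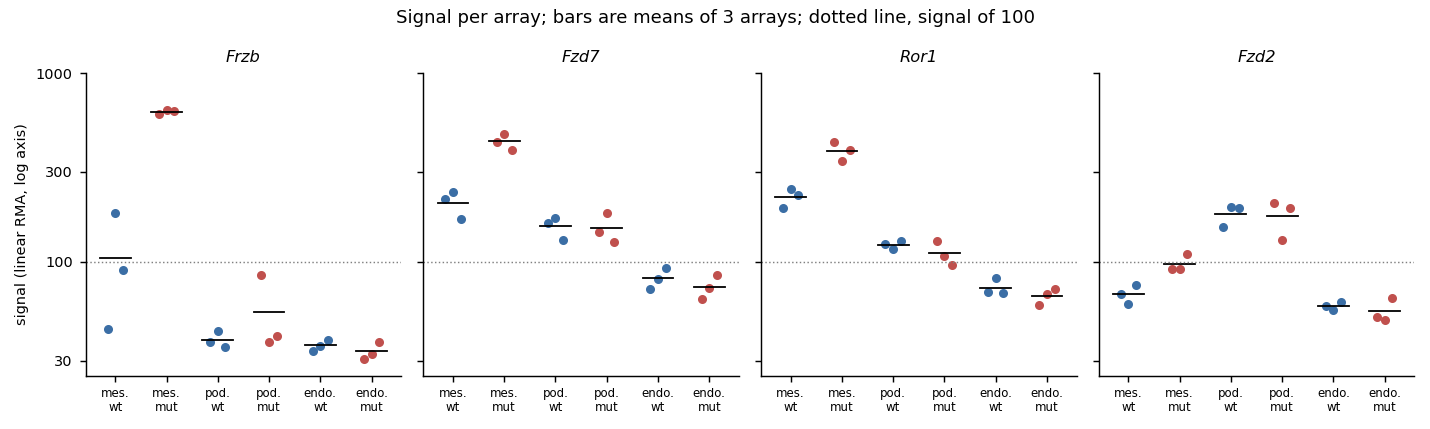
Signal of *Frzb*, *Fzd7*, *Ror1* and *Fzd2* in each array (points; linear RMA signal on a log axis) by cell type and genotype, with bars for the mean of 3 arrays and a dotted line at 100. *Frzb* is 605 to 636 in mutant mesangial cells and at most 181 in every other array, and *Fzd7* and *Ror1* separate by genotype in mesangial cells alone.

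Leaving out each of the 6 arrays in turn kept these 3 members past the screen, with log2 differences of 2.29 to 3.31 for *Frzb*, 0.95 to 1.19 for *Fzd7* and 0.72 to 0.90 for *Ror1*. The adjusted p then rose to at most 0.114, 0.0861 and 0.0910, and stayed under 0.05 for *Frzb* only without wild type array A or B, and for *Fzd7* and *Ror1* only without wild type array C. Array C is the one that stood apart above for markers of other cells. Y-linked signal moved with genotype here, since wild type arrays B and C had it and no mutant array did. A term for it, chosen after the data were seen, leaves the mutant arrays set against wild type array A alone, the only control without Y-linked signal and the mesangial array with the lowest *Frzb* signal. The log2 differences were then 3.83, 1.01 and 1.01, with adjusted p of 0.0512, 0.234 and 0.137 that assume this lone control to vary like the other arrays, so they do not test whether the differences hold without Y-linked signal.

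Markers of other cells also moved in the mesangial arrays. Of 7 smooth muscle and juxtaglomerular markers, *Acta2* and *Tagln* passed the screen higher in mutants, with summed signals of the list of 1855, 2927 and 3243 in mutant and 1649 to 1978 in wild type arrays. The rest of this list did not move together. Mean signals in mutant and wild type arrays were 206 and 265 for *Smtn*, 287 and 299 for *Myh11* and 296 and 289 for *Ren1*. They were 103 and 92.7 for *Cnn1* and 107 and 80.5 for *Lmod1*. Of 10 mesangial markers *Des* and *Itga8* passed the screen lower, with summed signals of 10953, 9798 and 10258 in mutants against 13490 to 14406. Of 10 endothelial markers *Ehd3* and *Tek* passed it lower, and of 10 podocyte markers *Wt1* did. Of 6 parietal epithelium markers *Cldn1* passed it higher. Their part in the rise of *Frzb*, *Fzd7* and *Ror1* was not tested.

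The sequences upstream of the 3 genes that rose together are shown because members that move together may be compared at their start sites. They are the 250 bases before the start of transcription in RefSeq (build GRCm38.p6), written 5′ to 3′ on the strand of the gene. Both strands were searched for the TCF/LEF core CTTTGAT, the TATA box TATAAA and the GC box GGGCGG, and capitals mark every match (CCGCCC is the GC box read on the other strand). The windows are chr2:80447397-80447646 (minus strand) for *Frzb*, chr1:59481897-59482146 (plus strand) for *Fzd7* and chr4:100095541-100095790 (plus strand) for *Ror1*.
Frzb: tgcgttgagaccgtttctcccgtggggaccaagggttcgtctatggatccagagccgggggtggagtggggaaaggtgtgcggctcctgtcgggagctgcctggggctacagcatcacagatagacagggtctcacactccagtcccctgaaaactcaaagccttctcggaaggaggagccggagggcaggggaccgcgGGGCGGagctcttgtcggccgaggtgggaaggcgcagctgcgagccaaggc
Fzd7: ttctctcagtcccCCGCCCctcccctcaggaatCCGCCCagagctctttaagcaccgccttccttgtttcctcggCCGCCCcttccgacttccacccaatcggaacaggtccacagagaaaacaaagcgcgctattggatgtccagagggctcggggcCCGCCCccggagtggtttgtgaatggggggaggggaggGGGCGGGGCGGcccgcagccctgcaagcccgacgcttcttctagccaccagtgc
Ror1: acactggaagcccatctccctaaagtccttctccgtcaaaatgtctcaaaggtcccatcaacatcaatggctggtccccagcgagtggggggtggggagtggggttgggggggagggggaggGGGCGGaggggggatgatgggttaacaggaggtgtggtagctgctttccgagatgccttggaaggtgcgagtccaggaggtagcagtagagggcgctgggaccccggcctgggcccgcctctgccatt

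The *Fzd7* window holds 6 GC boxes and those of *Frzb* and *Ror1* 1 each, and none of the 3 holds the TCF/LEF core or the TATA box. RefSeq windows were found for 39 of the 55 members, 48 windows in all. The GC box was in 77.1% of these and in 32.7% of the 32851 windows of all genes, and the median GC content was 67.4% against 52.4%. The TCF/LEF core was in 2 of the 48 (4.17%), those of *Wnt5b* and *Wnt11*, against 3.21% of all windows. The TATA box was in 10 (20.8%) against 12.4%. A match describes letters only, and no match says only that these letters are not in the window.

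In podocytes 2 of the 28 members tested passed the screen, *Sfrp2* and *Dkk2*, both lower in mutants, where 5.61% of all clusters passed it and 4.34% were lower. Neither had an adjusted p under 0.05, which 0.0578% of clusters had, and 3 members had an unadjusted p under 0.05 in limma, which 14.3% of clusters had. The median log2 difference was -0.03 over the tested members and -0.04 over all clusters. *Sfrp2* gave 859, 487 and 224 in mutant arrays against 1299, 1146 and 1069 in wild type. The mutant arrays lay below the wild type arrays and were spread over a wide range. The log2 difference was -1.36 ± 0.43, or 2.57-fold (adjusted p = 0.231, limma), and -0.85 without mutant array C. *Dkk2* gave 662, 383 and 169 against 816, 957 and 798, again without overlap (log2 -1.29 ± 0.43, 2.44-fold, adjusted p = 0.257). It was -0.76 without mutant array C and lost the screen, at -1.21, without wild type array B.

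Some markers of other cells moved with both genes across the podocyte arrays. *Itga8* gave 724, 472 and 134 in mutant podocytes against 1153, 1152 and 869 in wild type, and *Ptn*, a growth factor also on the mesangial list, gave 1627, 790 and 132 against 2434, 2206 and 2028. Mutant array C was thus the lowest of all 6 for *Sfrp2*, *Dkk2*, *Itga8* and *Ptn*. Of 10 mesangial markers 5 passed the screen lower in mutants, with summed signals of 4484, 3515 and 1269 against 5246 to 6607. The rest of this list did not pass it and did not move together. *Agtr1a* gave 620, 941 and 139 in mutants against 849, 645 and 699, and *Gata3* 411, 512 and 188 against 606, 518 and 435. *Des* gave 218, 163 and 97.4 against 196, 137 and 169, and *Tbx18* 91.9, 110 and 125 against 103, 102 and 109. Of 10 endothelial markers 9 passed the screen lower, with sums of 950 to 2992 against 4742 to 6325. Of 10 podocyte markers 1, *Ptpro*, passed it lower. Other markers passed it higher: *Ren1* and *Acta2* of 7 smooth muscle and juxtaglomerular markers (sums of 1306 to 3366 in mutants against 1075 to 1091), *Cldn1* and *Pax8* of 6 parietal epithelium markers (765 to 1045 against 542 to 557) and *Csf1r* of 8 leukocyte markers (489 to 647 against 453 to 715). The part of the other cells in the lower *Sfrp2* and *Dkk2* signals was not tested.

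**Figure D4:**
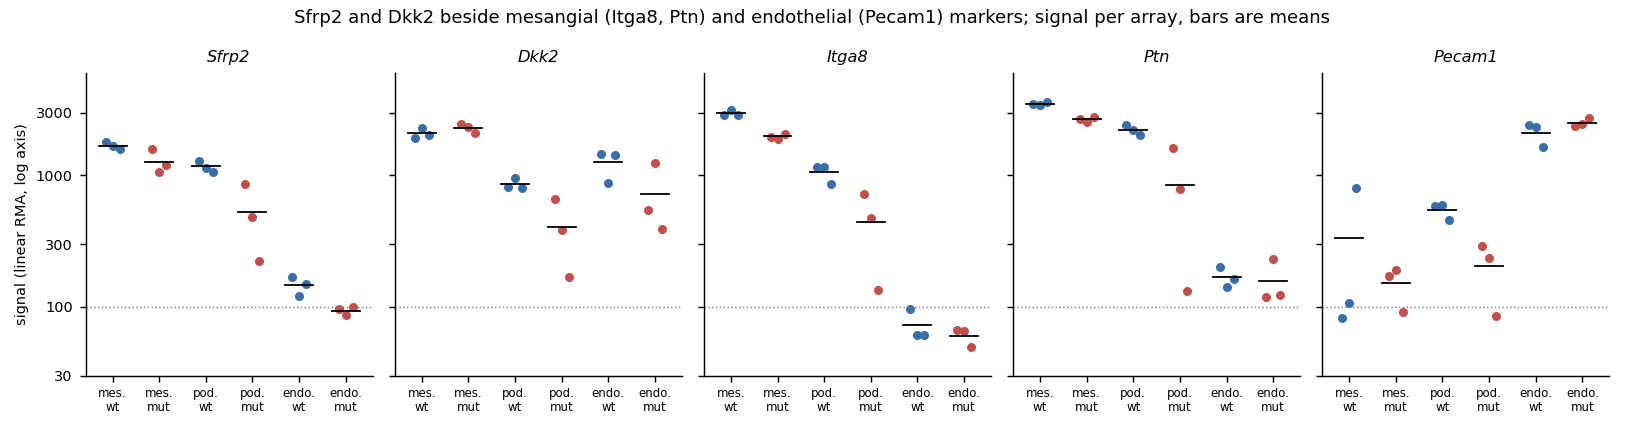
Signal of *Sfrp2* and *Dkk2* in each array (points; linear RMA signal on a log axis) beside the mesangial markers *Itga8* and *Ptn* and the endothelial marker *Pecam1*, with bars for the mean of 3 arrays and a dotted line at 100. Among mutant podocyte arrays the one with the lowest *Sfrp2* (224) and *Dkk2* (169) also has the lowest *Itga8* (134), *Ptn* (132) and *Pecam1* (84.5).

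No receptor passed the screen in podocytes. The 8 Frizzled genes tested did not, and their log2 differences ran from -0.26 to 0.16. *Fzd2* was 205, 131 and 193 in mutants against 152, 194 and 194 in wild type (log2 -0.05, 95% interval -0.52 to 0.42), and *Fzd7* was 145, 182 and 127 against 161, 171 and 131 (log2 -0.04, interval -0.44 to 0.37), both with full overlap. *Ror1* was 129, 108 and 96.6 against 125, 117 and 129 (-0.16, interval -0.49 to 0.17). *Frzb* stayed below 100 in all 6 arrays, with mutant array A at 85.1 and the others at 35.5 to 43.3, and was not tested. The ligand *Wnt5b* had an unadjusted p under 0.05 and a 1.27-fold difference (151, 130 and 169 in mutants against 109, 120 and 126, adjusted p = 0.339, limma). The podocyte arrays did not overlap between genotypes for 2 members that were higher and 3 that were lower, where 21.3% of all clusters did not (6.97% higher and 14.3% lower).

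The windows upstream of *Sfrp2* and *Dkk2* are shown for the pair that was lower in mutant podocytes and endothelial cells, with the same marks. They are chr3:83766071-83766320 for *Sfrp2* and chr3:132085042-132085291 for *Dkk2*, both on the plus strand of GRCm38.p6.
Sfrp2: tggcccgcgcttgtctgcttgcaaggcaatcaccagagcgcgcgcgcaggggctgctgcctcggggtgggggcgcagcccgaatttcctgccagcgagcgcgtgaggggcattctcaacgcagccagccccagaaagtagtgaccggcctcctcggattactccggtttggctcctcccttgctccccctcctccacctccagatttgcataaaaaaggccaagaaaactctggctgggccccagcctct
Dkk2: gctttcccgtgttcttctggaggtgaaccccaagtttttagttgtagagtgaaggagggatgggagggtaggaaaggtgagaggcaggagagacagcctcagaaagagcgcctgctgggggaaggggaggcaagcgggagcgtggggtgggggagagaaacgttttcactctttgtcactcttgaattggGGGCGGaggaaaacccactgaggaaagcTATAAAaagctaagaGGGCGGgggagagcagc

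The *Dkk2* window holds 1 TATA box and 2 GC boxes, while that of *Sfrp2* holds none of the motifs searched.

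In endothelial cells 4 of the 17 members tested passed the screen, *Fzd4* and *Lrp5* higher in mutants and *Sfrp2* and *Dkk2* lower, where 3.82% of all clusters passed it, 2.96% higher and 0.865% lower. The median log2 difference was 0.07 over the tested members and 0.07 over all clusters. *Lrp5*, which is needed for retinal and bone Wnt signals, was the only member with an adjusted p under 0.05, which 1.29% of clusters had in either direction and 1.21% with a higher mutant signal. It gave 232, 186 and 217 in mutants against 148, 131 and 139 in wild type, with no overlap. The log2 difference was 0.60 ± 0.11, or 1.52-fold (adjusted p = 0.0499, limma). The call is near both thresholds: the fold change was under 1.5 without wild type array B or mutant array A or C (0.53 to 0.58) and after quantile normalization (0.49).

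*Fzd4* gave 430, 355 and 293 in mutant endothelial cells against 211, 265 and 215 in wild type. The arrays did not overlap, and the log2 difference was 0.63 ± 0.16, or 1.55-fold (adjusted p = 0.11, limma). It did not pass the screen without mutant array A (0.49) or wild type array A (0.57). *Sfrp2* gave 95.8, 86.4 and 99.1 against 168, 120 and 149, a 1.54-fold lower signal without overlap (log2 -0.63 ± 0.13, adjusted p = 0.0731), which did not pass without mutant array B (-0.57) or wild type array A (-0.52). *Sfrp2* reached 100 only in the wild type endothelial arrays, so that its being tested, and its place among the 4, was tied to the higher wild type signal. *Dkk2* gave 546, 1234 and 394 against 1446, 881 and 1442. Mutant array B lay above wild type array B, so the genotypes overlapped, and the log2 difference of -0.93 ± 0.40 (adjusted p = 0.265) did not pass without mutant array A or C or wild type array A or C, with -0.58 without mutant array C and -1.40 without mutant array B.

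None of the 10 endothelial markers or of the 3 mesangial markers tested passed the screen in the endothelial arrays, where the mesangial sum was 793 to 936 in mutants and 876 to 947 in wild type. Y-linked signal was in mutant arrays A and B alone. A term for it leaves mutant array C alone set against the 3 wild type arrays, with log2 differences of 0.64 for *Lrp5*, -1.64 for *Dkk2*, 0.35 for *Fzd4* and -0.54 for *Sfrp2*. With 1 array in an arm these are values only. *Wnt4* (log2 -0.35), *Tcf7l2* (0.37) and *Fzd6* (0.41) differed by less than 1.5-fold. With the 4 called, 7 members had an unadjusted p under 0.05, which 18.5% of clusters had. The endothelial arrays did not overlap between genotypes for 4 members that were higher and 3 that were lower, where 25.1% of all clusters did not (17.7% higher and 7.34% lower).

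**Figure D5:**
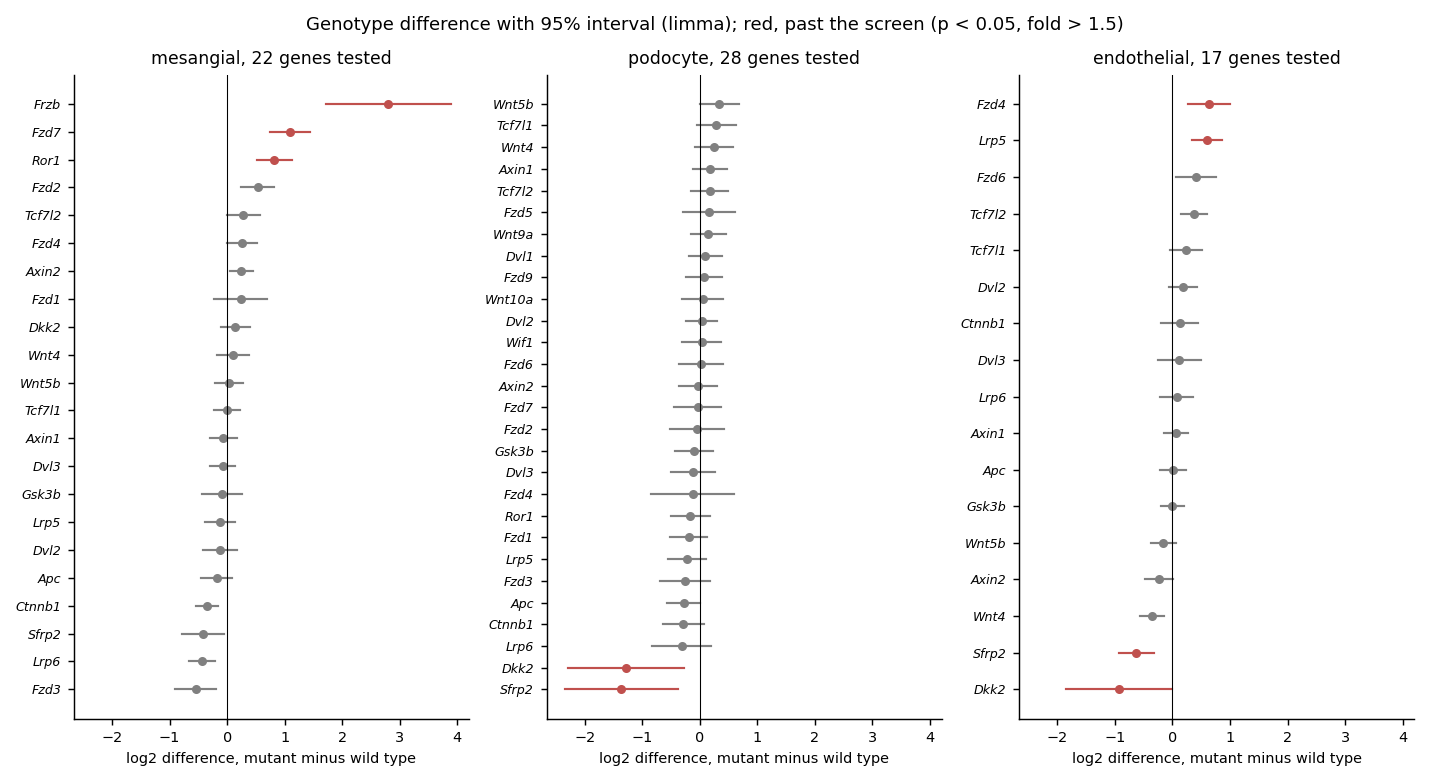
Log2 difference, mutant minus wild type, with its 95% interval from limma (points and lines) for each member tested in mesangial cells (22), podocytes (28) and endothelial cells (17), in red where it passed the screen. The called members are *Frzb*, *Fzd7* and *Ror1* in mesangial cells, *Dkk2* and *Sfrp2* in podocytes, and *Fzd4*, *Lrp5*, *Sfrp2* and *Dkk2* in endothelial cells.

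Whether the genotype differences themselves differ between cell types was tested as interaction contrasts in limma over 18 arrays and 13523 clusters, with 29 members tested and a call at an adjusted p under 0.05. The same 3 members were called for podocytes minus mesangial cells, where 0.717% of clusters were called and 0.510% were negative like these, and for endothelial minus mesangial cells, where 1.07% were called and 0.362% were negative. A negative value means that the mesangial difference was the larger. For *Frzb* the contrast was -2.41 ± 0.52 on the log2 scale against podocytes (adjusted p = 0.0429) and -2.91 ± 0.52 against endothelial cells (adjusted p = 0.0121). *Frzb* stayed below 100 in all podocyte and endothelial arrays, so these values compare the mesangial difference with differences at the low end of the scale, and with signals below 50 set to 50 they were -2.49 (adjusted p = 0.0106) and -2.74 (adjusted p = 0.00424). For *Fzd7* the contrasts were -1.12 ± 0.23 (adjusted p = 0.0381) and -1.25 ± 0.23 (adjusted p = 0.015), and for *Ror1* -0.98 ± 0.18 (adjusted p = 0.0203) and -0.96 ± 0.18 (adjusted p = 0.0164). *Fzd7* and *Ror1* also stayed below 100 in all 6 endothelial arrays and were not tested for genotype there, so their contrasts against endothelial cells carry the same limit. Both contrasts use the same 6 mesangial arrays. Y-linked signal lay in wild type arrays alone among mesangial cells and in mutant arrays alone among endothelial cells. The mesangial controls may also have been heterozygous, while the other control columns are headed +/+. No interaction fit had a term for either, and leaving out 1 array does not remove them. Their part in these contrasts cannot be told apart from that of cell type.

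Each contrast was refitted with 1 of its 12 arrays left out. Against endothelial cells, where all 3 genes were at these low signals, the calls stayed in 12 of 12 fits for *Frzb* and *Fzd7* and in 11 for *Ror1*, which lost it without endothelial mutant array A (adjusted p = 0.0542). Against podocytes they stayed in 2 of 12 fits for *Frzb*, 5 for *Fzd7* and 10 for *Ror1*, with adjusted p of at most 0.108, 0.109 and 0.0592 and log2 values of -1.90 to -2.92, -0.98 to -1.26 and -0.88 to -1.09. *Frzb* kept that call only without wild type mesangial array B or mutant podocyte array A.

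*Lrp5* was called for podocytes minus endothelial cells (-0.83 ± 0.17, adjusted p = 0.0263, limma), where 2.11% of clusters were called and 1.86% were negative. The mutant podocyte arrays gave 146, 116 and 112 against 152, 139 and 146 in wild type, on the other side of the endothelial difference. The call stayed in 7 of 12 fits that left out 1 array and was lost without podocyte wild type array A, endothelial mutant array A or C, or endothelial wild type array B or C. No contrast was called for *Sfrp2*, *Dkk2* or *Fzd4*, so their genotype differences were not shown to differ between cell types.

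Other genes of the pathway were counted from lists that hold 108 genes besides members. In mesangial cells 57 of the 108 were tested, and 3 passed the screen higher and 1 lower, 4 of 57 where 5.19% of all clusters passed. All 4 are on the list of genes known as targets of beta-catenin signalling, of which 17 of 35 were tested, the member *Axin2* included. *Ptgs2*, *Fn1* and *Myc* reached a signal of 100 only in mutant mesangial arrays, so that their being tested was tied to the higher mutant signal. *Ptgs2*, the inducible cyclooxygenase, gave 337, 526 and 247 in mutants against 57.0, 62.7 and 57.4 (log2 2.58 ± 0.26, adjusted p = 0.00843, limma). *Fn1*, the matrix protein fibronectin, gave 231, 541 and 574 against 69.6, 64.8 and 90.2 (2.49 ± 0.35, adjusted p = 0.0235). *Myc*, a growth regulator, gave 97.5, 135 and 101 against 53.8, 55.9 and 48.6 (1.06 ± 0.14, adjusted p = 0.0204). The transcription factor gene *Tbx3* fell, from 342, 344 and 342 to 221, 209 and 184 (-0.75 ± 0.09, adjusted p = 0.0155). None of these arrays overlapped between genotypes. All 4 genes respond to many other signals as well. *Axin2*, the target most used to read the pathway, had a log2 difference of 0.25 and an adjusted p of 0.162 in limma and did not pass the screen. In endothelial cells *Axin2* was lower in mutants, at 96.8, 99.0 and 107 against 132, 109 and 115. Those arrays did not overlap, and *Axin2* did not pass the screen there either.

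The lists of Wnt secretion and receptor turnover, further antagonists, planar polarity receptors and intracellular regulators made no call in mesangial cells, with 3, 7, 6 and 25 of their genes tested. In podocytes, where 5.61% of all clusters passed, 57 were tested and 2 passed higher, *Fn1* and *Pax8*, and 4 lower, *Igfbp4*, *Reck*, *Snai2* and *Tbx3*, none with an adjusted p under 0.05. *Fn1* reached 100 in mutant podocyte arrays only. In endothelial cells, where 3.82% of all clusters passed, 52 were tested and 1, *Fn1*, passed, higher in mutants (log2 0.90 ± 0.26, adjusted p = 0.152, limma).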

How the data were processed

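RNA from GFP-sorted cells was amplified by Ribo-SPIA and measured on Affymetrix Mouse Gene ST arrays. The authors deposited 1 linear intensity per transcript cluster and array, made by RMA per the sample records. The 18 columns of a second, normalized form of the same arrays were not used here, and each column used was assigned to a group by its labels. The header and methods name Gene ST arrays and GeneSpring, the series record Exon arrays and GeneBASE. RNA-seq was not analysed here. The arrays' number limits precision, and no depth applies.

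Log2 signals were fitted with lmFit and eBayes of limma 3.58.1 (R 4.3.3), without covariates, over clusters that reached a signal of 100 in 1 or more arrays, and p values were adjusted by Benjamini-Hochberg over all of them. Cell types and interactions used 1 fit over 18 arrays. Errors are SE for differences and SD for means. Single array values or their ranges, not always for both genotypes, are given for 2 sets of members. These are *Frzb*, *Fzd7*, *Fzd2* and members past the genotype screen, and members differing over 2-fold between cell types in both genotypes. Others were named as values beside them or chosen after they were seen. Members, lists and rules were chosen with earlier results of these data known. Promoter windows came from RefSeq (GRCm38.p6), and motifs were searched with Python 3.11.15. Scripts were tested on simulated data. The alternatives were other signal minimums, signals below 50 set to 50, array medians subtracted, quantile normalization, an intensity trend with robust estimation, the median over a gene's clusters, other arrays in the fit, stricter calls, each array left out, and, added later, a term for Y-linked signal.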

Additional observations from a re-analysis of the deposited data

Results flagged for a closer look

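The genotype difference of 7 member and cell type pairs differed between cell types by the interaction test in limma, and these values are given without an explanation. For podocytes minus mesangial cells the differences were -2.41 for *Frzb*, -1.12 for *Fzd7* and -0.98 for *Ror1*, on the log2 scale. For endothelial minus mesangial cells they were -2.91 for *Frzb*, -1.25 for *Fzd7* and -0.96 for *Ror1*. In each of these the mutant minus wild type difference was larger in mesangial cells. *Frzb*, *Fzd7* and *Ror1* stayed below 100 in every endothelial array, and *Frzb* also in every podocyte array. Those contrasts are therefore against signals at the low end of the scale and give no exact size. With 1 of 12 arrays left out, the contrasts against podocytes stayed called in 2 fits for *Frzb*, 5 for *Fzd7* and 10 for *Ror1*. For podocytes minus endothelial cells the difference was -0.83 for *Lrp5*, which was higher in mutants in endothelial cells and not in podocytes. The *Lrp5* call stayed in 7 of 12 such fits. Y-linked signal was unevenly spread over the groups, and no interaction fit had a term for it. Groups of 3 arrays are too small for a check of single arrays against the rest of their group.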

How the results depend on the processing

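No paired analysis was possible because the groups compared share no replicate number and the columns carry none that matches a sample title. The members called for genotype in podocytes went from 2 to 0 when the adjusted p was required. In endothelial cells they went from 4 to 2 with array medians subtracted, 2 with quantile normalization, 2 with the term for Y-linked signal, which was chosen after seeing the data and leaves 1 mutant array in the comparison, and 1 with the adjusted p. With a fold change over 2, the calls for podocytes minus mesangial cells went from 7 to 4 in wild type and from 11 to 7 in mutant arrays, and those for podocytes minus endothelial cells from 12 to 5 and from 14 to 8. The interaction calls went from 3 to 1 for podocytes minus mesangial cells with no minimum signal, where more clusters are tested, and from 1 to 0 for podocytes minus endothelial cells with quantile normalization. The cause of the other shifts was not tested. With 1 array left out, genotype calls ranged from 3 to 5 in mesangial cells, 1 to 2 in podocytes and 1 to 3 in endothelial cells. Calls between cell types then ranged from 4 to 6 and 10 to 11 for podocytes minus mesangial cells (wild type, then mutant), 9 to 10 and 11 to 12 for endothelial minus mesangial cells, and 10 to 12 and 12 to 15 for podocytes minus endothelial cells. Interaction calls ranged from 0 to 4 for podocytes minus mesangial, 2 to 4 for endothelial minus mesangial and 0 to 4 for podocytes minus endothelial cells. The small podocyte differences of *Fzd2* (-0.05) and *Fzd7* (-0.04) turned positive with quantile normalization, at 0.037 and 0.028, and ranged from -0.17 to 0.15 and from -0.18 to 0.081 with 1 array left out. The mesangial differences of *Frzb*, *Fzd7* and *Ror1* stayed past the screen in every refit of that comparison, of which the one with the Y-linked term rests on 1 control array, but their adjusted p did not stay under 0.05 in most fits with 1 array left out, and a fold change over 2 was not run for genotype.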

Other observations

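The signals of 3 pathway genes outside the members are given as a description, chosen after their values were seen, and stand for no group of genes. *Lgr4*, an R-spondin receptor that protects Frizzled receptors from removal, was 466, 439 and 428 in wild type podocytes against 57.9, 66.8 and 110 in mesangial cells and 35.8 to 37.5 in endothelial cells. Mutant podocytes gave 506, 625 and 410, against 61.5 to 79.7 in mesangial and 35.1 to 37.6 in endothelial cells. The endothelial signals lay below the array medians and are not shown to be above background, so no fold is given. *Gpc3*, a cell surface glypican that binds Wnt and hedgehog proteins, was 1396, 2113 and 1345 in wild type mesangial cells, 501, 525 and 447 in podocytes and 43.9 to 49.0 in endothelial cells, with no overlap. *Wls*, which carries Wnt proteins to the cell surface, was 679, 623 and 648 in wild type mesangial cells against 178, 234 and 197 in endothelial cells, while podocytes and mesangial cells were not called apart for it in limma. *Adgra2*, a co-receptor of brain vessels, was not called in any pair. Its adjusted p was 0.00605 to 0.0273 in limma in the pairs with mesangial cells, but its fold change was under 1.5. *Kremen1*, *Znrf3*, *Igfbp4*, *Gpc4*, *Gpc6*, *Reck*, *Apcdd1* and *Tmem88* were each called in at least 1 pair and are not described here. None of *Lgr4*, *Gpc3* and *Wls* passed the genotype screen in any cell type in which it was tested.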
